A study of Mus musculus with 1824 samples.

Results

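The 38 *Hox* genes and the 3 *Cdx* genes considered here (41 of 55487 genes in the count table) were chosen by name: members of the *Hoxa*, *Hoxb*, *Hoxc* and *Hoxd* clusters with *Cdx1*, *Cdx2* and *Cdx4*. The data are read counts per gene of 1824 single cells, sorted into 19 plates and sequenced by Smart-seq2. Per the methods part of the cells were also profiled for chromatin accessibility and DNA methylation, which are not used here, and the others for RNA alone. According to the labels, 11 plates hold cells of E7.5 mouse embryos and 8 plates hold cells of E8.5 embryos, with CD1 given as the strain at both stages. The methods of the study describe chimaeras in which embryonic stem cells lacking *Tet1*, *Tet2* and *Tet3* (*Tet*-TKO), marked by an H2B-tdTomato transgene under the CAG promoter, were injected into C57BL/6J blastocysts that were carried by CD1 recipients. Cells were stained for CD41 and KDR before sorting, surface proteins of blood and vascular progenitors. The labels used here give neither the genotype nor the sorting gate of a cell, so mutant and host cells were described together and no genotype was compared.

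An animal is named for 4 E7.5 plates (embryos 1, 2, 4 and 5) and for no E8.5 plate. E8.5 is therefore 1 sample, differences between stages carry no test, and the spread over plates is given in its place. Of all cells, 1634 passed the limits on reads (57.8% of them labelled E7.5), and the median per plate ranged from 224956 to 1699478.5 reads per cell. The E7.5 lane plates 1 to 4 stood apart from the other E7.5 plates: 77.3% of their cells fell in the 11 cell classes that held more than 1 E8.5 cell, against 12.2% on the other 7 E7.5 plates. Whether this comes from the sorting gate, the embryos or the stage label was not tested, and these cannot be told apart here. The E7.5 label of these plates was kept as given. All E7.5 cells of the endothelial-like, erythroid-like, myeloid-like, neural ectoderm-like and surface ectoderm-like classes lay on them, as did 52 of 65 haematoendothelial-like cells, 59.3% of the extraembryonic mesoderm-like cells and 10 of the 11 caudal-like cells of that stage, so E7.5 values of these classes rest on that label. The comparison of stages is given with and without these plates.

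*Hox* genes encode homeodomain transcription factors that give cells their position along the body axis. The clusters arose by duplication, genes at the same place in each cluster are called a paralogue group and are numbered from 1 to 13, and low-numbered genes are known to be switched on earlier and more anteriorly than high-numbered ones. *Cdx* genes encode caudal-type homeodomain factors that act upstream of *Hox* genes in the posterior embryo, and *Cdx2* is also required in the trophoblast. In these stages posterior *Hox* genes are known from the tail end of the embryo and from the allantois, the extraembryonic mesoderm that forms the umbilical vessels.

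In the annotation of GRCm38 the members of *Hoxa* span 98.5 kb of chromosome 6, those of *Hoxb* 173.9 kb of chromosome 11, those of *Hoxc* 115.8 kb of chromosome 15 and those of *Hoxd* 96.8 kb of chromosome 2. Promoter sequences (250 bases before to 50 bases after the transcription start, RefSeq, GRCm38.p6) were found for 24 of the 41 members, with 2 starts each for *Hoxa10* and *Hoxd11*. The motif TTTATNG, which resembles sites of caudal-type and posterior *Hox* factors, was searched on both strands, and 2 of the 26 member promoters held it (7.69%), against 10.9% of all 32851 promoters of this length. The 2 are those of *Hoxb8* (chr11:96281655-96281954, plus strand) and *Hoxd4* (chr2:74721728-74722027, plus strand), with 3 matches each. They are shown 5′ to 3′ because they carry the motif, whose matches on either strand are in capitals.
Hoxb8: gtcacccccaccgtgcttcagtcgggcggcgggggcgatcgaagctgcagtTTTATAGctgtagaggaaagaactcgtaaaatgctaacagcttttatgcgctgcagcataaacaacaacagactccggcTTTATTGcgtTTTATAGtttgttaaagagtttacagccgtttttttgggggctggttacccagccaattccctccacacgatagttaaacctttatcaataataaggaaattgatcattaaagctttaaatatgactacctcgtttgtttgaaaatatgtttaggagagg
Hoxd4: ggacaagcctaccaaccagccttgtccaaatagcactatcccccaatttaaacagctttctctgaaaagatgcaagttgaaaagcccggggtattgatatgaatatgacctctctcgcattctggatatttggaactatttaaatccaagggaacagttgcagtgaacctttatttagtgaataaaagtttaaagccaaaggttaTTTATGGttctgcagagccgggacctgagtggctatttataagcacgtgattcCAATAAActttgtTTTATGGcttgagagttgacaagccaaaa
The match describes letters only and is no evidence of binding.

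Member promoters were rich in CpG, the dinucleotide at which DNA is methylated and from which TET enzymes remove methylation: the median was 14.5 CpG per promoter (lowest 4, highest 45) against 7.0 over all promoters, at a median GC content of 57.3% against 52.7%. The promoters of 4 members are shown because the results turn on them: *Hoxb1* (chr11:96365508-96365807, plus strand, 10 CpG) and *Cdx4* (chrX:103321148-103321447, plus strand, 8 CpG) for caudal-like cells, *Hoxa10* (chr6:52234890-52235189, minus strand, 21 CpG) and *Hoxa13* (chr6:52260831-52261130, minus strand, 45 CpG), the last gene of its cluster, for the allantois-like cells. For *Hoxa10* only the start with 21 CpG is shown, and its other start (chr6:52240805-52241104, minus strand) has 12 CpG. Which start the reads came from was not tested. Capitals mark each CG, and every sequence runs 5′ to 3′ along the strand of the gene.
Hoxb1: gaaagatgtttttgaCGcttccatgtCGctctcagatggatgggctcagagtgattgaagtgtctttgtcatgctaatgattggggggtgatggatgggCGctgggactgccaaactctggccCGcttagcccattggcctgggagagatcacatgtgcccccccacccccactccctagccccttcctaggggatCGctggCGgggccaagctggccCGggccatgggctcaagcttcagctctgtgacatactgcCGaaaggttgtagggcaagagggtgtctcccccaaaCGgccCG
Cdx4: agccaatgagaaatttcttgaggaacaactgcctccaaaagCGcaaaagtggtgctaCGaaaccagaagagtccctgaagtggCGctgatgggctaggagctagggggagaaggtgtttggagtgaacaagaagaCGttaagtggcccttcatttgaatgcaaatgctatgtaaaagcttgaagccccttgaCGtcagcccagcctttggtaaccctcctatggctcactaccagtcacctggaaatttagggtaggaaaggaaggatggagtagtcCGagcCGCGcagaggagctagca
Hoxa10: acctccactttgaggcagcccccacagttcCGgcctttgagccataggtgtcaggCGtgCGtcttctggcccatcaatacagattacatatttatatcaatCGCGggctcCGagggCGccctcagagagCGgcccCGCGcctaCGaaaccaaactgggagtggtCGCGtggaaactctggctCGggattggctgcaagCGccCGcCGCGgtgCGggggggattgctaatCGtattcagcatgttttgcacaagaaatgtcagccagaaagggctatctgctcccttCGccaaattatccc
Hoxa13: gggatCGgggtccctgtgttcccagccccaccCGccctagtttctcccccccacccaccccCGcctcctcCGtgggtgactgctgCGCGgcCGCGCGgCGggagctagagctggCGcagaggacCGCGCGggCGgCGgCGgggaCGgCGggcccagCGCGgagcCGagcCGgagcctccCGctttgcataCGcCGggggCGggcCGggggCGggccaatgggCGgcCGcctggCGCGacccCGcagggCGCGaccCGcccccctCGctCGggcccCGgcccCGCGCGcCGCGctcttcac
The CpG count of *Hoxa13* was the highest among the member promoters, and the lowest, at 4, was shared by *Hoxd4*, *Hoxa9* and 1 start of *Hoxd11*.

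The first comparison asks how pooled levels of members differed between plates labelled E7.5 (gastrulation) and E8.5 (early organogenesis). The plates differ in their cell classes. Epiblast-like, nascent mesoderm-like and extraembryonic ectoderm-like cells were found at E7.5 only, and blood progenitor-like and megakaryocyte-like cells at E8.5 only. A difference between stages can therefore not be told apart from a difference in the classes sampled. Levels were read as reads per 1e6 reads (CPM), pooled over the cells of a stage, and a member was called when log2 of the ratio, with 1 CPM added to both values, was at least 1 in either direction and the member reached 1 CPM in either stage. Higher levels at E8.5 were found for 16 of the 31 members that reached 1 CPM, against 7.49% of the 15328 genes tested by the same rule. None was called higher at E7.5, against 9.35% of all genes. The median log2 ratio was 0.77 over the members and 0.05 over all genes tested. Plates overlapped between the stages for every member, and 1.47% of all genes had plates that did not. After every cell was thinned to 100000 reads, 51.6% of cells had a *Hox* read at the first stage and 53.8% at the second, against 0 and 3.64% of erythroid-like cells. A *Cdx* read was found in 40.6% and then 22.9% of cells, so the pooled *Cdx* level was higher while fewer cells had a read.

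The calls fell mainly in the middle and posterior groups. Only members that reached 1 CPM could be called, and by this rule 7.49% of all genes tested were higher in the later stage. Groups 4 to 8, which act in the neck and trunk, had 9 calls among the 13 of 15 members that reached 1 CPM. The 9 were *Hoxa5*, *Hoxa7*, *Hoxb5*, *Hoxb6*, *Hoxb7*, *Hoxc5*, *Hoxc6*, *Hoxc8* and *Hoxd4*. The summed level of these groups went from 24.217 to 69.997 CPM. Groups 9 to 13, which act in the posterior trunk, tail and limb, had 5 calls among the 9 of 16 members that reached it. The 5 were *Hoxa9*, *Hoxa10*, *Hoxb9*, *Hoxc9* and *Hoxc10*, and the sum of these groups went from 16.966 to 56.115 CPM. Groups 1 to 3, which act in the hindbrain, had 1 call (*Hoxd3*) among the 6 of 7 members that reached it. Their sum went from 44.965 to 53.173 CPM. Among the *Cdx* genes only *Cdx4* was called, and the sum of the 3 was 72.3 CPM at E7.5 and 102.3 at E8.5.

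**Figure D1:**
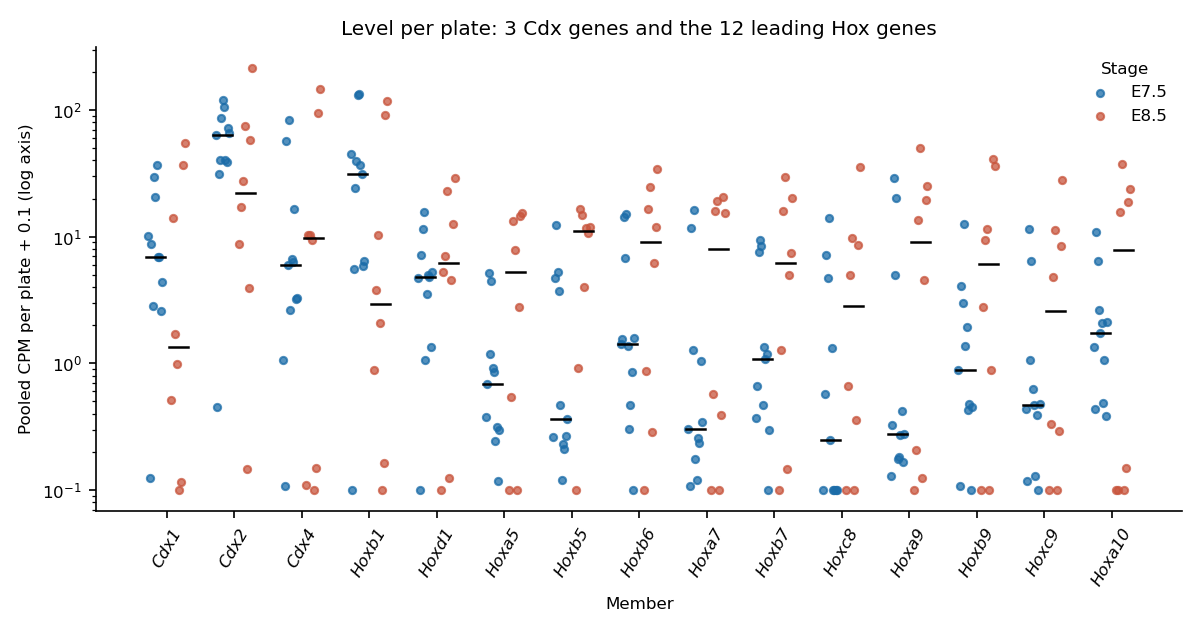
Pooled CPM per plate with 0.1 added, on a log axis, for the 3 *Cdx* genes and the 12 leading *Hox* genes; each point is 1 plate (11 of E7.5, 8 of E8.5) and the black bar is the median of the plates. The stages overlap for every gene, and E8.5 plates span from 0 to 145.97 CPM for *Cdx4* and from 0 to 117.8 CPM for *Hoxb1*.

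The plates show how uneven these levels were. *Cdx2*, which acts in the trophoblast and in the posterior body, had 0.352 CPM on the lowest E7.5 plate, a median of 63.022 and 120.46 on the highest, and at E8.5 the lowest was 0.0467, the median 22.1 and the highest 214.1 CPM. *Cdx4*, an X-linked gene that acts with the other *Cdx* genes on blood and tail formation, ranged from 0.00837 through a median of 5.85 to 83.002 CPM over E7.5 plates and from 0 through 9.73 to 145.97 CPM over E8.5 plates. *Cdx1*, which responds to retinoic acid and WNT, had a median over plates of 6.87 CPM at the first stage and 1.25 at the second, with the highest plates at 36.5 and 54.9 CPM. For all 3 genes the highest E8.5 plate was plate 8, which also held 27 of the 52 cells of the caudal class described further on. Pooled values were 48.8 and 52.036 CPM for *Cdx2* (log2 ratio 0.09), 14.6 and 35.8 for *Cdx4* (1.24), 8.83 and 14.4 for *Cdx1* (0.65). Without E8.5 plate 8 the log2 ratio of *Cdx2* was -1.003 and that of *Cdx4* was 0.18.

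*Hoxb1*, the earliest *Hoxb* gene and a hindbrain regulator, was the *Hox* gene with the highest pooled level at both stages, at 30.975 CPM in E7.5 cells (95% Poisson interval 30.6 to 31.4, counting error only) and 30.1 in E8.5 cells (29.7 to 30.6). Its plates ran from 0 to 134.6 CPM (median 31.1) at E7.5 and from 0 to 117.8 CPM (median 2.84) at E8.5. The E7.5 lane plates 5 and 6 were highest at the first stage and E8.5 plates 8 and 7 at the second. *Hoxd1*, its paralogue in the *Hoxd* cluster, had 6.03 and 9.53 CPM with plate medians of 4.69 and 6.07 CPM. Neither was called, and without E8.5 plate 8 *Hoxb1* had a log2 ratio of -1.01.

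*Hoxb9*, a trunk gene, had the largest log2 ratio of all members (2.12): 2.13 CPM pooled at E7.5 (2.03 to 2.23) and 12.6 at E8.5 (12.3 to 12.9). Over E7.5 plates it ran from 0 through a median of 0.790 to 12.5 CPM, and over E8.5 plates from 0 through 5.97 to 41.2 CPM. *Hoxa9*, which marks posterior mesoderm and blood stem cells, ran from 0.0289 through 0.177 to 29.2 CPM at E7.5 and from 0 through 8.98 to 50.007 CPM at E8.5. Lane plate 4 for *Hoxb9*, and lane plates 2 and 4 for *Hoxa9*, lay above the median of the E8.5 plates. *Hoxa10*, a gene of the posterior trunk and the reproductive tract, had 2.79 CPM over E7.5 cells and 10.6 over E8.5 cells, with its highest plates at 10.7 and 37.3 CPM. *Hoxc9*, a thoracic gene, had 1.56 and 6.64 CPM, and *Hoxc8*, next to it in the cluster, had 2.62 and 7.69 CPM.

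Of the other leading genes of groups 4 to 8, *Hoxb6* had 4.07 CPM at E7.5 and 11.2 at E8.5. *Hoxb7* had 3.41 and 8.77 CPM, and *Hoxb5* 2.87 and 7.99 CPM. These 3 lie side by side in the *Hoxb* cluster, and their E8.5 plates reached 34.1, 29.3 and 16.4 CPM. *Hoxa7* had 2.40 and 8.19 CPM and *Hoxa5*, needed for lung and neck patterning, 1.12 and 6.54 CPM. All 5 had at least 1 E8.5 plate at 0.

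The remaining members were lower. At E8.5 the other 5 called genes had pooled levels between 2.01 CPM (*Hoxc6*) and 4.40 CPM (*Hoxc5*), with *Hoxc10* at 2.56, *Hoxd4* at 3.49 and *Hoxd3* at 3.55. Most exon bases of *Hoxd3* (62.8%) and *Hoxd4* (52.3%) overlap other annotated genes, each other included, and the strand setting of the counting is not given in the sources used here, so reads of these 2 are uncertain. Uncalled members that reached 1 CPM were *Hoxa2*, *Hoxa3*, *Hoxa11*, *Hoxa13*, *Hoxb1*, *Hoxb2*, *Hoxb4*, *Hoxb8*, *Hoxc4*, *Hoxd1*, *Hoxd8*, *Hoxd9*, *Hoxd10*, *Cdx1* and *Cdx2*. The other 10 members stayed under 1 CPM in both stages: *Hoxa4*, *Hoxa6*, *Hoxb3*, *Hoxb13*, *Hoxc11*, *Hoxc12*, *Hoxc13*, *Hoxd11*, *Hoxd12* and *Hoxd13*. *Hoxd12* had no read in any cell kept, which with 3 counts as the limit allows 0.00356 CPM in the earlier and 0.00602 CPM in the later stage, and *Hoxc12* had 2 reads, both in 1 E7.5 cell. A single cell carried 89.3% of the E8.5 reads of *Hoxb13* and 76.8% of the E7.5 reads of *Hoxc13*.

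E8.5 plate 8 decided part of the count. Without it 10 members were called higher at E8.5 (7.97% of all genes), with *Hoxa9*, *Hoxb6*, *Hoxb7*, *Hoxc6*, *Hoxc8*, *Hoxc9* and *Cdx4* lost and *Hoxd10* gained, and 2 (*Hoxb1* and *Cdx2*) were called higher at E7.5 (11.2% of all genes). Without E7.5 lane plates 1 to 4, an alternative added after seeing the data, 24 members were called higher at E8.5, the same 16 with *Hoxa3*, *Hoxa11*, *Hoxb8*, *Hoxc4*, *Hoxd1*, *Hoxd8*, *Hoxd9* and *Hoxd10*, against 12% of all genes, and 0 higher at E7.5, against 10.1%. The median log2 ratio of the members was then 1.19.

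Cells were grouped into classes by clustering in which the members themselves took no part, and clusters were named from lists of 8 markers per class. Of 23 clusters 22 were named, and the other, of 79 E7.5 cells, was left unnamed though it had 4 of 8 caudal markers. A caudal class, the tail-end progenitors in which the axis grows, did not separate at the main resolution: its cells lay inside a cluster named pharyngeal and cardiac mesoderm-like. At a finer resolution of 2, 52 cells (11 of E7.5 and 41 of E8.5) formed a caudal-like class with 7 of 8 markers (*Nkx1-2*, *Wnt3a*, *Fgf17*, *Epha5*, *T*, *Fgf8* and *Sp8*), and all 52 came from that cluster. Because clustering can shift this border, the number of caudal-like cells went from 0 at resolution 0.5 to 78 with 4000 variable genes. Levels per class are described without a test, since cells are not replicates.

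**Figure D2:**
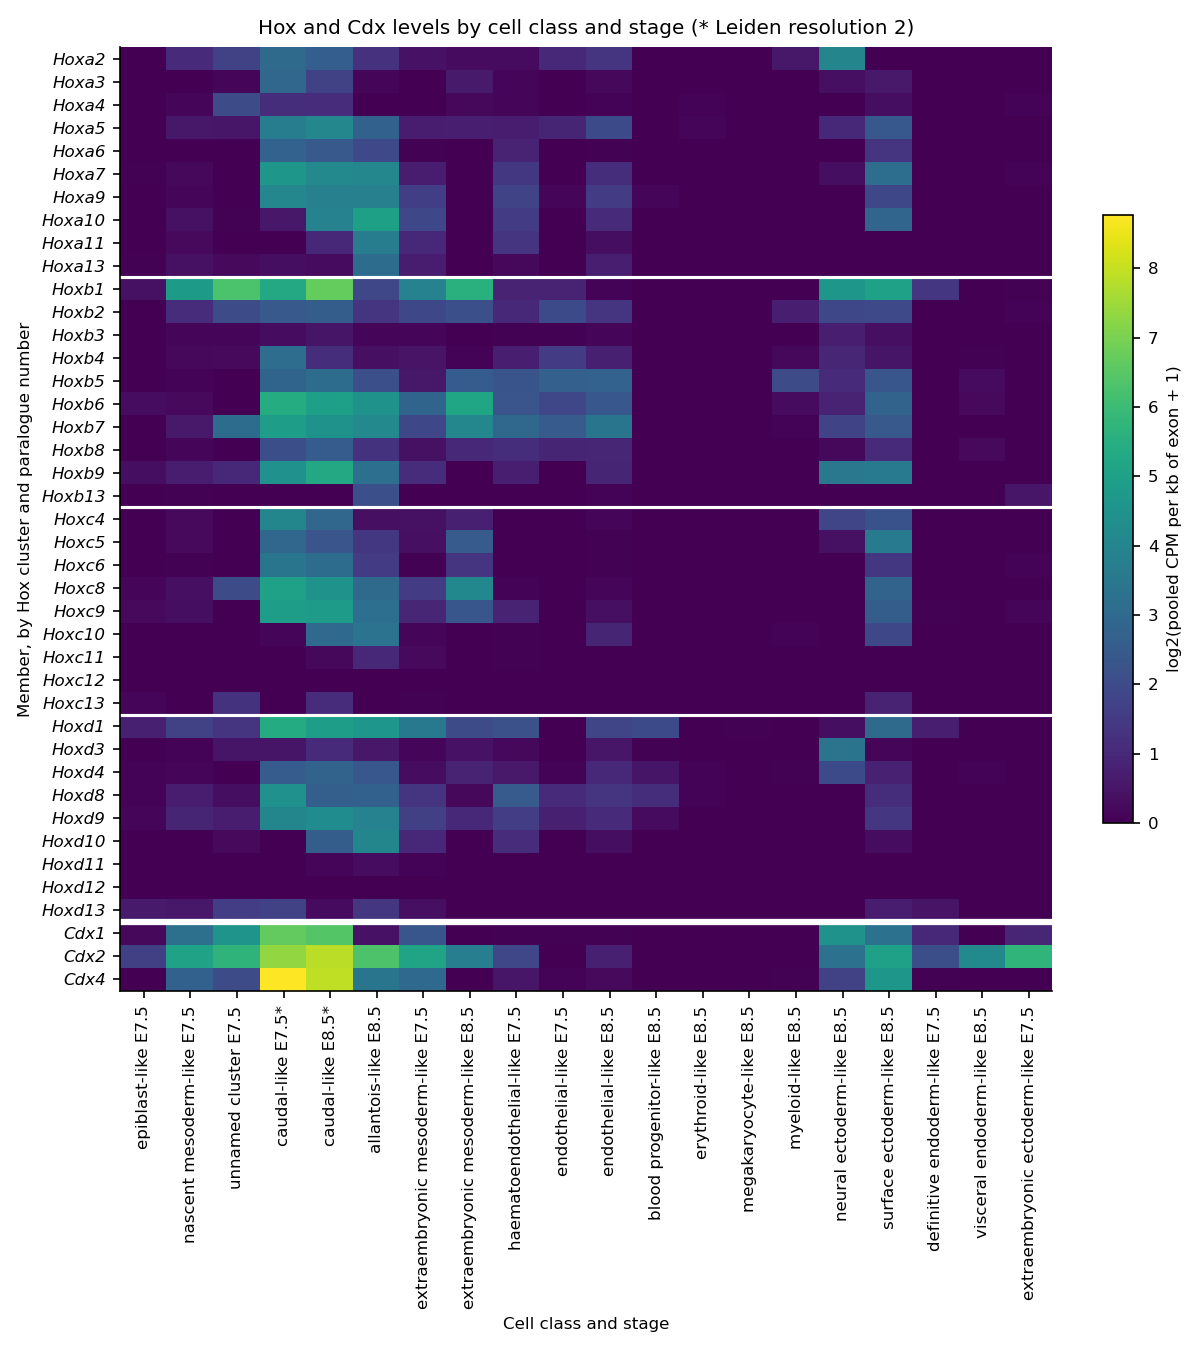
Heat map of log2(pooled CPM per kilobase of exon + 1) for the 41 members (rows, by cluster and paralogue number) in each cell class and stage (columns; an asterisk marks classes from Leiden resolution 2). E8.5 caudal-like cells have reads through group 10 (25.9 CPM per kb over the group) and E8.5 allantois-like cells through group 13 (12.5), and no member passes 0.1 CPM per kb in the erythroid-like and megakaryocyte-like columns.

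Caudal-like cells at E8.5 held all 3 *Cdx* genes and most of the *Hox* series. *Cdx2* stood at 519.2 CPM (90.2% of cells with a read after thinning every cell to 100000 reads), *Cdx4* at 475.4 (60.98%) and *Cdx1* at 150.2 CPM (56.1%). Per kilobase of exon, the scale on which genes can be compared, the leading *Hox* genes were *Hoxb1* (101.8 CPM per kb), *Hoxb9* (37.9), *Hoxb6* (30.2), *Hoxd1* (28.2) and *Hoxc9* (27.2). The level summed over groups 9 to 13 was 349.5 CPM (Poisson interval 342.98 to 356.09), with 397.3 on plate 7 (12 cells) and 334.9 on plate 8 (27 cells). By comparison the cells of the same stage that kept the pharyngeal and cardiac mesoderm-like name at this resolution had 24.1 CPM.

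The level fell off past group 10 in these cells. Summed per kb, group 9 reached 96.2 and group 10 25.9, while group 11 had 1.17, group 13 1.54 and group 12 was at 0. The 41 cells had reads of a median of 14 *Hox* genes each, and the highest-numbered *Hox* gene with a read belonged to group 9 in 63.4% of cells and to groups 10 to 13 in 29.3%. *Hoxa10* was seen in 29.3% of cells and 57.7% of its reads came from 1 cell. Detection of the ends of the series overlapped: *Hoxb1* was found in 24 cells, a gene of groups 9 to 13 in 38, and both in 21. All 25 cells with *Cdx4* also had a read of groups 9 to 13.

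The 11 caudal-like cells of E7.5 (5 each on lane plates 2 and 4) had reads of a median of 17 *Hox* genes each, with little past group 9. Their leading *Hox* genes per kb were *Hoxb6* (41.8), *Hoxd1* (40.9), *Hoxb1* (38.7), *Hoxc8* (31.4) and *Hoxc9* (29.3), with *Cdx4* at 855.2, *Cdx2* at 365.1 and *Cdx1* at 174.9 CPM. Groups 9 to 13 summed to 252.8 CPM (345.1 and 226.6 on the 2 plates), and group 10 had 0.579 CPM per kb. *Hoxa10* was seen in 1 of the 11 cells and *Hoxd10* in none, which allows a share of up to 27.3% of cells. Each of these cells had a read of groups 9 to 13. With 4000 variable genes, where most caudal-like cells came from the unnamed E7.5 cluster, the sum was 11.2 CPM.

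Allantois-like cells at E8.5 were the class whose *Hox* content reached furthest along the clusters. The 40 cells (29 on plate 4) were named from 7 of 8 markers, *Tbx4* and *Pitx1* among them. Groups 9 to 13 summed to 348.7 CPM (341.7 to 355.9), with 341.5 on plate 4 and 363.4 on plate 8, and all 40 cells had a read of them. The highest-numbered *Hox* gene lay in groups 10 to 13 in 90% of cells and in group 9 in the rest, and a cell had reads of a median of 12 *Hox* genes. At resolution 0.5, where the class took in other cells, the sum was 221.4 CPM. Summed per kb, group 10 (55.05) exceeded group 9 (43.1), group 11 had 13.2 and group 13 had 12.5, and group 12 was at 0.

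By gene, *Hoxa10* led the class at 30.7 CPM per kb (100.3 CPM, 72.5% of cells), followed by *Hoxd1* (23.5), *Hoxb6* (21.1), *Hoxb7* (16.4) and *Hoxa7* (15.6). The 5′ genes of the *Hoxa* cluster continued past it: *Hoxa11* had 27.4 CPM and a read in 62.5% of cells, and *Hoxa13*, the last gene of the cluster and known for umbilical artery and limb formation, had 18.6 CPM and 30% of cells. Of the exon bases of *Hoxa11* 35% overlap an antisense gene. In the *Hoxd* cluster *Hoxd9* (29.2 CPM) and *Hoxd10* (27.6 CPM) were followed by *Hoxd11* (0.941 CPM), and *Hoxd13* had 3.99 CPM. In the *Hoxc* cluster *Hoxc10* (17.5 CPM) was the last above 3 CPM, since *Hoxc11* had 2.03 CPM and *Hoxc12* and *Hoxc13* had no read. *Hoxb13* had 7.56 CPM, of which 95.025% came from 1 cell.

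The *Cdx* genes of the allantois-like class were mainly *Cdx2*. It stood at 178.6 CPM (85% of cells), *Cdx4* at 18.9 CPM (25%) and *Cdx1* at 0.602 CPM (1 of 40 cells). *Hoxb1* was seen in 4 of the 40 cells, with 75.9% of its reads in 1 of them, whereas the *Hoxd* gene of the same group was seen in 60%. By cluster, 36.8% of the *Hox* level per kb came from *Hoxa*, 26.7% from *Hoxd*, 24.2% from *Hoxb* and 12.3% from *Hoxc*. In E8.5 caudal-like cells the order was *Hoxb* (49.8%), *Hoxc* (17.8%), *Hoxa* (17.4%) and *Hoxd* (15.1%).

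Extraembryonic mesoderm-like cells, from which the allantois and yolk sac mesoderm form, had less. At E7.5 groups 9 to 13 summed to 37.8 CPM, and the 7 plates with at least 5 such cells ran from 1.03 (lane plate 6) to 93.5 CPM (lane plate 4). *Hoxb1* (13.8 CPM per kb), *Hoxd1* (10.8), *Hoxb6* (6.02), *Hoxa10* (2.78) and *Hoxb7* (2.72) led. At resolution 2 *Hoxb1* had 6.29 CPM per kb, *Hoxa10* 1.85 and *Hoxb7* 1.48. *Cdx2* had 76.6 CPM and was seen in 56.6% of cells. At E8.5 the class had only 15 cells, with 12.1 CPM over groups 9 to 13 and none in groups 10 to 13. *Hoxb1* (46.9 CPM per kb, 72.97% of its reads in 1 cell), *Hoxb6* (35.5), *Hoxc8* (15.992), *Hoxb7* (15.6) and *Hoxb5* (4.81) led there.

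A share of cells needs a background. At E7.5, 30.8% of 26 visceral endoderm-like cells (interval 14.3 to 51.8%) had a read of groups 9 to 13 after thinning, at 9.07 CPM, mostly of *Hoxa10*, *Hoxa13* and *Hoxd13*, while in 98 extraembryonic ectoderm-like cells the share was 7.14% at 1.25 CPM. The shares of E7.5 extraembryonic mesoderm-like (28.3%), nascent mesoderm-like (18.9%) and epiblast-like cells (15.3%) did not exceed that of the visceral endoderm-like cells, so they are not read as detection above background. Median depths were 560560 reads per visceral endoderm-like cell, 585660 per extraembryonic ectoderm-like cell and 998340 per extraembryonic mesoderm-like cell. At E8.5 none of 20 visceral endoderm-like cells had such a read, which allows a share of up to 15.0%.

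Haematoendothelial-like cells of E7.5 (65 cells) had *Hoxb7* (6.84 CPM per kb), *Hoxd8* (4.73), *Hoxb6* (3.93), *Hoxb5* (3.84) and *Hoxd1* (3.56) as leading genes. At resolution 2 *Hoxb7* had 1.81 CPM per kb there and *Hoxd8* (5.05) led. Their 34.5 CPM over groups 9 to 13 rested on lane plate 2, and the sum was 7.19 without it and 110.8 without lane plate 3. *Hoxa9* showed this most, with 104.5 CPM on lane plate 2 and 0 on lane plate 3.

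Endothelial-like cells were named from all 8 markers at both stages. At E7.5 (60 cells, 46 on lane plate 2) the leading genes were *Hoxb5* (5.41 CPM per kb), *Hoxb7* (4.67), *Hoxb2* (2.90), *Hoxb6* (2.67) and *Hoxb4* (1.87), and the *Hoxb* cluster made up 83.2% of the *Hox* level per kb. At resolution 2 *Hoxb7* led at 9.41 CPM per kb, with 42.3% of its reads in 1 cell, over *Hoxb5* at 5.6. Groups 9 to 13 had 2.13 CPM and 5% of cells with a read, and without lane plate 2 the sum was 0.0373 CPM. The share lay below those of visceral endoderm-like and extraembryonic ectoderm-like cells of that stage. At E8.5 *Hoxb7* (9.65), *Hoxb5* (5.83), *Hoxb6* (4.19), *Hoxa5* (2.91) and *Hoxd1* (2.60) led, *Hoxb* made up 56.7% and *Hoxa* 23.4%, and groups 9 to 13 had 24.1 CPM. The 3 plates gave 26.3, 46.02 and 11.1 CPM, and 31.4% of cells (24.6 to 38.9%) had a read, above the 15.0% that 0 of 20 visceral endoderm-like cells allows. *Hoxa9* was the main posterior gene, with 10.9 CPM and 15.4% of cells, and *Cdx2* had 1.61 CPM.

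In 77 blood progenitor-like cells of E8.5, *Hoxd1* (2.94 CPM per kb), *Hoxd8* (1.22), *Hoxd4* (0.419), *Hoxd9* and *Hoxa9* were the leading genes, *Hoxd* made up 97.2% of the level, and 98.2% of the *Hoxd1* reads came from 1 cell. Groups 9 to 13 were found in 2 of the 77 cells at 1.04 CPM, which became 0.509 when plate 6 was left out and 2.15 when plate 2 was. In erythroid-like cells no read of groups 9 to 13 was found, in 64 cells of E7.5 (which allows up to 4.69% of cells and 0.0389 CPM) or 110 cells of E8.5 (2.73% and 0.0296 CPM), nor in 41 megakaryocyte-like cells (7.32%). In myeloid-like cells the highest *Hox* gene was *Hoxb5*, at 5.35 CPM in 26 E7.5 cells (26.9% with a read) and 8.30 CPM in 35 E8.5 cells (22.9%), and *Hoxb* made up 91.75% and 87.97% of their *Hox* level per kb. *Hoxb4* followed at E7.5 (1.84 CPM, 19.2% of cells) and *Hoxb2* at E8.5 (2.39 CPM, 14.3%). At E8.5, 54.7% of these *Hoxb5* reads came from 1 cell.

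Ectodermal classes had their own sets. Neural ectoderm-like cells were led at E7.5 (19 cells) by *Hoxa2*, a hindbrain gene, at 30.8 CPM per kb, though 69.4% of its reads came from 1 cell, and at E8.5 (32 cells) by *Hoxb1* (24.047), *Hoxa2* (14.8), *Hoxb9* (10.5) and *Hoxd3* (9.37). A single cell held 81.3% of those *Hoxb9* reads. Surface ectoderm-like cells of E8.5 (53 cells) had *Hoxb1* at 31.1 CPM per kb, *Hoxb9* at 11.2 and *Hoxc5* at 11.1, and 89.2 CPM over groups 9 to 13 with 32.7 and 142.7 CPM on the 2 plates with at least 5 cells. *Cdx2* had 71.1 CPM there and *Cdx4* had 47.3, of which 54.2% came from 1 cell.

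*Cdx2* was also found outside the embryo proper. Extraembryonic ectoderm-like cells, the trophoblast derivatives, had it at 117.8 CPM in 92.9% of 98 cells, and their *Hox* genes together came to 0.909 CPM per kb. Visceral endoderm-like cells had *Cdx2* at 9.25 CPM at E7.5 (23.1% of cells) and 39.2 at E8.5 (65%). In neither class did *Cdx4* reach 1 CPM. An unnamed E7.5 cluster of 79 cells (43 on lane plate 6) had the caudal markers *Nkx1-2*, *Wnt3a*, *T* and *Sp8*. Its leading genes included *Sp8*, *Tbx6*, *Dll1* and *Msgn1*. It had 180.7 CPM of *Hoxb1*, 116.8 of *Cdx2*, 38.6 of *Cdx1* and 5.91 of *Cdx4*. In the 11 caudal-like cells of E7.5 at resolution 2 *Cdx4* stood at 855.2 CPM. Values of E7.5 caudal-like cells thus depend on which of these cells are counted.

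The second comparison asks which members differed between epiblast-like and nascent mesoderm-like cells. A cluster within the nascent mesoderm-like class had *T*, *Nanog* and *Pou5f1* among its leading genes, and *Pou5f1* is also an epiblast marker here. Whether all cells of that class had entered the primitive streak was not tested, so the classes are not read as before and after entry. Only 3 named embryos (1, 2 and 4) held at least 5 cells of both classes (21, 29 and 6 epiblast-like cells; 52, 47 and 12 nascent mesoderm-like cells), and counts summed per embryo and class were tested with edgeR, with the embryo as a block. Of 15408 genes tested 51 were called higher in nascent mesoderm-like cells (0.331%) and 27 lower (0.175%) at a false discovery rate of 1% and a log2 change of at least 1. Of the 41 members 8 passed the filter on low counts, and by edgeR 0 of the 8 were called. At an unadjusted p under 0.05 there were 7 of 8, against 17.4% of all genes. DESeq2 called 5 higher (*Hoxb1*, *Hoxb2*, *Cdx1*, *Cdx2* and *Cdx4*), against 3.58% of all genes. *Cdx4*, *Hoxb2* and *Hoxd9* had 3, 2 and 0 reads in these epiblast-like cells, so they passed the filter through nascent mesoderm-like cells. For such members the filter set the direction, so these shares are no fair measure against all genes. Without the filter 10 of 35 members had an unadjusted p under 0.05, against 3223 of 32469 genes. A simulation of this comparison recovered 82% of genes changed by a log2 fold of 4 and 40% of those changed by 3.

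Of the 8 members tested, all but *Hoxd13* were higher in nascent mesoderm-like cells of every embryo, though not past the threshold. The filter favours that direction. Without the filter 31 of 35 members had a positive log2 change, and *Hoxc6*, *Hoxc9*, *Hoxc11* and *Hoxc13* had a negative one. The median was then 3.66 over these members and 0.24 over all 32469 genes. The share of all genes with a positive change was not computed, and members without a read in epiblast-like cells could only have a positive one. *Hoxb1* had 0.0669, 2.08 and 0 CPM in epiblast-like cells of embryos 1, 2 and 4, and 60.7, 61.1 and 36.7 CPM in their nascent mesoderm-like cells, a log2 change of 6.55 ± 1.00 (SE, n = 3 embryos, edgeR adjusted p = 0.0404). *Cdx2* had 1.21, 4.72 and 0 CPM against 53.3, 57.5 and 53.2 CPM (4.99 ± 0.81, edgeR adjusted p = 0.0466). *Cdx4* had 0.0669, 0.0704 and 0 CPM against 4.50, 33.024 and 19.987 CPM, with 3 reads in all in the first class against 1827 in the second and an edgeR adjusted p of 0.0189. The groups did not overlap for these 3 genes, nor for *Cdx1*, *Hoxb2*, *Hoxd1* and *Hoxd9*. The share of all genes without overlap was not computed, so this is a description only. The border between the classes mattered: at resolution 2, where embryo 5 also qualified, the log2 change of *Cdx2* was 0.37, that of *Cdx4* 4.01 and that of *Hoxb1* 3.03, and 3 of 9 members had an unadjusted p under 0.05, against 21.8% of all genes.

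Among the others, *Cdx1* had 1.21, 0.0704 and 0 CPM against 9.70, 10.2 and 10.3 CPM (edgeR adjusted p = 0.115). *Hoxb2*, adjacent to the anterior end of *Hoxb*, had 0, 0.0704 and 0 CPM against 3.14, 4.39 and 1.28 CPM (edgeR adjusted p = 0.0842), and 27.3% of its exon bases overlap an antisense gene. *Hoxd1* had 0.402, 0.106 and 0.640 CPM against 3.45, 6.39 and 2.03 CPM, for which the edgeR adjusted p was 0.227, and at resolution 2 its log2 change was -0.026. *Hoxd9* had no read in epiblast-like cells of the 3 embryos and 2.11, 1.501 and 1.496 CPM in nascent mesoderm-like cells, at least 27.4-fold higher when 3 counts over the group are taken as the limit (edgeR adjusted p = 0.169). *Hoxd13* had 0.870, 2.67 and 0 CPM against 3.18, 0.637 and 4.17 CPM, so that its groups overlapped (edgeR adjusted p = 0.774), and without embryo 4 its log2 change was -0.138.

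**Figure D3:**
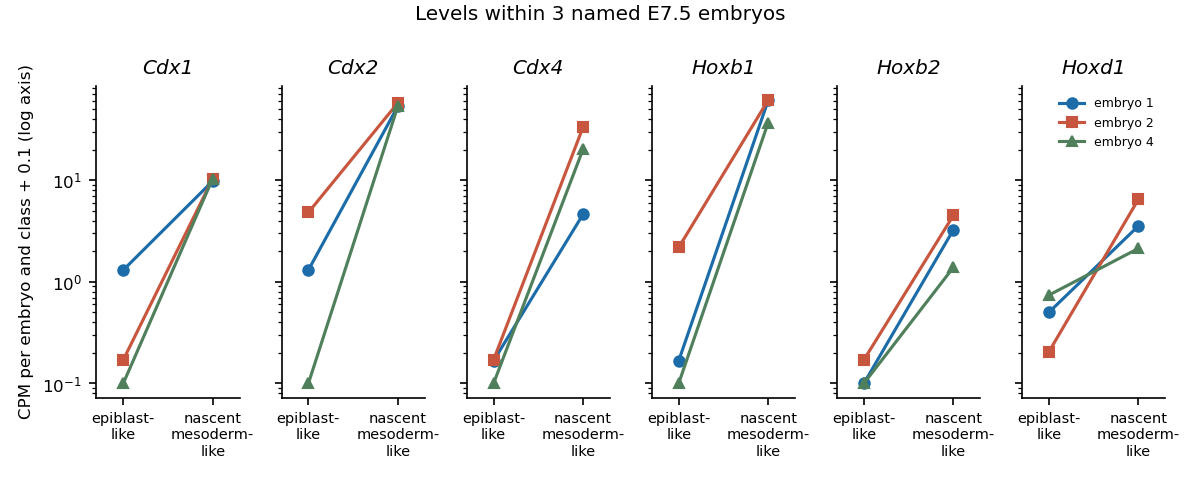
CPM per embryo and class with 0.1 added, on a log axis, in epiblast-like and nascent mesoderm-like cells of embryos 1, 2 and 4 (lines join the classes of 1 embryo). *Hoxb1*, *Cdx2* and *Cdx4* are higher in nascent mesoderm-like cells in all 3 embryos.

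After thinning, 49.8% of the nascent mesoderm-like cells had a read of *Hoxb1*, 41 cells had a read of groups 9 to 13 and 20 had both. *Cdx2* was found in 91 cells and *Cdx4* in 22. The class had 61.96 CPM of *Hoxb1* pooled (plates 17.8 to 74.8), 72.8 of *Cdx2* and 11.1 of *Cdx4*. In paraxial mesoderm-like cells, separated at resolution 2 (39 cells of E7.5), *Hoxb1* reached 379.2 CPM and 89.7% of cells while groups 4 to 8 had 3.94 CPM.

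The same test for extraembryonic mesoderm-like against epiblast-like cells was not run at the main resolution, where 2 embryos held enough cells. At resolution 2, added after seeing the data, embryos 1, 2 and 5 qualified. The filter on low counts was used here too, so members near 0 in epiblast-like cells could pass it only through the other class. By edgeR 0 of 8 members tested were called (0.848% of 12501 genes were called higher and 0.280% lower), 6 had an unadjusted p under 0.05 (22.1% of all genes) and DESeq2 called 6 higher (4.89% of all genes), namely *Hoxa10*, *Hoxb2*, *Hoxd1*, *Hoxd9*, *Cdx2* and *Cdx4*. *Hoxb1* had a log2 change of -1.32 ± 1.46 (SE, n = 3 embryos, edgeR adjusted p = 0.672) and *Hoxa10* one of 6.84 ± 1.47 (edgeR adjusted p = 0.0667).

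Genes that act with or on the *Hox* genes were taken from 3 lists. Over all genes tested, 7.49% were called higher at E8.5 and 9.35% higher at E7.5. Within embryos 17.4% of all genes had an unadjusted p under 0.05 by edgeR. Of 9 TALE cofactors, the homeodomain partners of HOX proteins, none was called higher at E8.5 and 1 (*Pbx3*, 48.2 to 21.1 CPM) was called higher at E7.5, with a median log2 ratio of 0.03. Within embryos edgeR called 0 of 9, with 4 at an unadjusted p under 0.05. *Meis2* (log2 change 3.39 ± 0.32) had an edgeR adjusted p of 0.0114. Of 12 signalling genes of the posterior embryo, 2 were called higher at E8.5, both of the retinoic acid pathway (*Aldh1a2*, its synthetic enzyme, 7.70 to 20.5 CPM, and *Rarb*, a receptor, 1.46 to 5.62 CPM), and 5 higher at E7.5: *Fgf8*, *Fgf4*, *Gdf11*, *Cyp26a1*, which degrades retinoic acid (112.9 to 21.4 CPM), and *T*, the Brachyury factor of the streak (92.97 to 10.6 CPM).

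Within embryos 3 of the 10 signalling genes tested were called higher in nascent mesoderm-like cells and none lower, against 0.331% and 0.175% of all genes. They were *T* (log2 change 6.11 ± 0.26, edgeR adjusted p = 0.00215), *Wnt5a*, a secreted ligand (4.70 ± 0.19, edgeR adjusted p = 0.00206), and *Cyp26a1* (8.56 ± 0.40, edgeR adjusted p = 0.00254). *T* is also a marker from which the nascent mesoderm-like clusters were named, so its difference was fixed in advance. Unlike the members, genes of these lists were not left out of the clustering. Of 14 Polycomb and Trithorax genes, which keep *Hox* genes off or on, 1 was called higher at E7.5 (*Pcgf2*, 25.3 to 11.4 CPM) and none at E8.5, with a median log2 ratio of -0.41. By edgeR 0 of these 14 were called within embryos, with 2 at an unadjusted p under 0.05. These medians stand beside 0.05 over all genes tested. The calls of single genes at E7.5 stand beside 9.35% of all genes, and the 2 at an unadjusted p under 0.05 beside 17.4%.

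Over the 19 plates the genes whose levels ran most like the sum of groups 9 to 13 were *Mmp2* (Spearman rho 0.963), *Tmem119* (0.954), *Pcolce* (0.940), *Fstl1* (0.937) and *Cnn3* (0.933). Plates share cells of several classes and E7.5 and E8.5 plates differ in their classes, so this is a description, and *Tmem119* and *Pcolce* are also among the leading genes of the allantois-like cluster.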

How the data were processed

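Read counts per gene were deposited for 1824 single cells of chimaeric mouse embryos. According to the methods and the submitters' processing notes, the authors aligned Smart-seq2 reads (75 bp, single-end) to GRCm38 with HISAT2 2.1.0 and made the counts per gene with featureCounts from Ensembl annotation, with no normalisation. Strand and multi-mapping settings are not given in the sources used here, so overlapping and antisense genes cannot be told apart. Stage came from the labels. Genotype and sorting gate were not analysed here.

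Cells with at least 100000 reads, at most 10% mitochondrial and 20% ribosomal protein reads were kept (1634 cells). The methods set a lower minimum of 4000 reads, which was run as an alternative. No doublet caller was run. Cells were clustered with scanpy 1.11.5 on 2000 variable genes, without the members, 30 principal components, 15 neighbours and Leiden (leidenalg 0.10.2) at resolution 1, with 2 and 0.5 as alternatives. Every cluster named X-like had at least 3 of 8 markers, and names may differ from those of the study. Meeting this minimum did not always give a name: the unnamed E7.5 cluster of 79 cells had 4 of 8 caudal markers. Levels are reads pooled per class, stage or plate, as CPM, and shares are from cells thinned to 100000 reads. Poisson intervals, Clopper-Pearson intervals (95%) and limits of 3 counts cover counting error only, since reads are not independent molecules.

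Stages were compared as log2 of CPM ratios with 1 CPM added, with no test, as no E8.5 animal is named. Classes were compared within embryos on counts summed per embryo with edgeR 4.0.16 (R 4.3.3, quasi-likelihood, Benjamini-Hochberg adjusted, 1% false discovery rate, log2 change of at least 1), the embryo as a block. Pairing comes from the embryo named in the labels, and deviations of its classes correlated at 0.134, 0.140 and 0.148. The test was run on simulated data with 200 changed genes. Alternatives, with DESeq2 1.42.0 among them, are given in the closing section.

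Named genes were the 3 *Cdx* genes, up to 12 *Hox* genes by pooled level, the leading 5 *Hox* genes per kb in caudal, allantois, extraembryonic mesoderm, endothelial and blood classes, and members called by edgeR. Other members named for a class were chosen after their values were seen. Members, lists and markers were chosen with earlier results of these data known.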

Additional observations from a re-analysis of the deposited data

Results flagged for a closer look

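Pooled levels over all cells of the 4 named embryos (1, 2, 4 and 5) were checked for an embryo far from the others in 14 members, and 2 members were flagged because the gap to the nearest embryo took up most of the range. Chance flags about 1 in 20 groups. *Hoxa2* was highest in embryo 2, at 1.77 CPM against 0.0883 to 0.2175 CPM in the other 3 embryos. *Hoxd1* was lowest in embryo 4, at 1.238 CPM against 4.686 to 5.119 CPM in the others.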

How the results depend on the processing

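Of the counts, sums and shares recomputed under each alternative, 17 values moved. The number of members higher at E8.5 ranged from 10 to 21 when a plate was left out, with 10 without E8.5 plate 8 (7.97% of all genes). The number higher at E7.5 ranged from 0 to 2, with 2 without that plate (11.2% of all genes). For the other plates left out, the share of all genes is not given here. Within embryos edgeR called 0 members with the embryo as a block and 1 (*Cdx4*) with no block, so pairing by embryo changed that call. DESeq2 called 5, edgeR without a filter on low counts called 3, and leaving out an embryo gave 0 to 1 (*Hoxb1*, without embryo 2). At Leiden resolution 2 the log2 change of *Cdx2* was 0.37 in place of 4.99. *Hoxd1* reversed at that resolution (-0.026) and *Hoxd13* without embryo 4 (-0.138, with 3.326 as the highest when an embryo was left out). The cause of these changes was not tested.

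The sum of groups 9 to 13 in E8.5 allantois-like cells was 221.4 CPM at resolution 0.5 and 331.3 when the deepest 2% of cells per plate were dropped, and 334.9 to 358.5 with a plate left out. That of E8.5 extraembryonic mesoderm-like cells was 16.2 CPM without those cells. In caudal-like cells it was 11.2 CPM at E7.5 with 4000 variable genes, and 397.4 at E8.5 with the members kept in clustering, with 339.2 to 401.04 as plates were left out. Myeloid-like cells of E7.5 ranged from 0 to 0.445 CPM with a plate left out, and their share of cells was 0% with another seed and 0% when 3 reads were asked for. In E8.5 endothelial-like cells the share was 21.1% with at least 3 reads and 42.3% without thinning. The sum of groups 9 to 13 in blood progenitor-like cells was 0.509 to 2.15 CPM with a plate left out. Among single genes 13 values passed a threshold that the reported value did not and 12 no longer did. Depth limits what a class without a read can show: 0 of 20 visceral endoderm-like cells allows a share of up to 15.0%.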
